A study of Homo sapiens with 6 samples.

Results

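The glucocorticoid receptor gene NR3C1 and 8 classic glucocorticoid-induced genes (TSC22D3, FKBP5, ZBTB16, SGK1, ERRFI1, CEBPD, MT1X and MT2A) were followed in P493-6, a human B-cell lymphoma line that carries a c-Myc transgene held off by tetracycline. The 9 genes were taken by symbol out of 18244 genes with a probe set of their own. The list was drawn up with earlier results of these data known. Each gene was read from 1 probe set, selected on the highest mean log2 intensity over all 6 arrays, which takes no account of the groups. Of the 9 genes, 7 were bright enough to be tested, among 12198 tested genes in all.

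All cells were grown in RPMI 1640 with fetal bovine serum, and all groups share 1 cell line and its transgene. The low-Myc group was taken at 0 hours of c-Myc release, the mid-Myc group after 1 hour and the high-Myc group after 24 hours, with 2 arrays each. The labels contradict themselves on the mid-Myc cells, with 0 hours in the growth protocol and 1 hour in the treatment protocol. The treatment protocol was used here because these cells are described as having a moderate c-Myc level. The labels name no glucocorticoid among the additions. ERCC synthetic RNAs were added to each sample in proportion to the number of cells. The duplicates are described as biological, and p-values rest on the spread between 2 duplicates per group and on a spread shared over genes.

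The glucocorticoid receptor is a hormone-activated transcription factor. It waits in the cytoplasm in a complex with HSP90 and its co-chaperones, enters the nucleus once it has bound hormone, and there binds DNA at glucocorticoid response elements. In lymphoid cells glucocorticoids are known for cell cycle arrest, apoptosis and dampened inflammatory signalling. Several of the genes described here also answer to other signals, such as serum and cyclic AMP for SGK1 and zinc for the metallothioneins.

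Intensities were set on 2 scales. On the per-cell scale the ERCC RNAs were brought level, so that a difference is relative to cell number. On the equal-median scale all arrays were given the same median over human probe sets, so that a difference is relative to that median. The deposited medians were 44.5 to 50.2, not far above the filter of 33.8 used below to choose genes for testing. The choice matters, because the median of all tested genes was 0.97 log2 higher per cell at 24 hours than at 0 hours, against 0.05 with equal medians. The MYC probe set had a mean intensity of 10375 on the low-Myc, 9986 on the mid-Myc and 11934 on the high-Myc pair of arrays. Its per-cell difference between high-Myc and low-Myc was 0.96 log2, which is close to that median. The sources used here do not say whether it reads the transgene. Of 8 listed B-cell markers 7 had a probe set, all 7 above the filter on intensity. Their summed deposited intensity was 14857 to 15011 in high-Myc arrays against 24171 to 24315 in low-Myc arrays, with MS4A1 the brightest. Per cell 4 of the 7 were called higher and 2 lower at 24 hours, against 90.8% and 2.53% of all tested genes. With equal medians 1 was higher and 6 lower, against 37.7% and 26.0%. Of 6 monocyte markers 5 were above the filter and CD14 was below it. The summed deposited intensity of the 6 was 1318 to 1336 in high-Myc arrays against 4678 to 4733 in low-Myc arrays. The 3' to 5' signal ratio of the ACTB control was 3.56 ± 0.16 in high-Myc, against 2.81 ± 0.07 in low-Myc arrays (SD, n = 2 each), and that of the GAPDH control was 1.18 ± 0.04, against 1.17 ± 0.06. The part of these values in the results below was not tested.

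Promoter sequences are shown first for the genes on which the results turn, with a motif found in each. They come from RefSeq (build GRCh38.p14) and run 5′ to 3′ on the gene's strand from 250 bases before to 50 bases after the start. Windows were found for 7 of the 9 genes, 19 windows in all because several genes have more than 1 start. The MT2A window (chr16:56608334-56608633, plus strand) and the MT1X window (chr16:56682220-56682519, plus strand) are shown because these metallothionein genes had the most similar profiles among the 7 tested. Capitals mark the core of the metal response element, which is the site of the zinc sensor MTF1. The TSC22D3 window (chrX:107717013-107717312, minus strand) and the FKBP5 window (chr6:35688866-35689165, minus strand) belong to the genes with the largest fall and the largest rise at 24 hours among the 7. Capitals mark the cyclic AMP response element half-site in the TSC22D3 window and the E-box, the motif bound by c-Myc with MAX, in the FKBP5 window. TSC22D3 has 4 windows and FKBP5 has 2, and those shown were picked for holding the most matches to the motif marked in them.
MT2A: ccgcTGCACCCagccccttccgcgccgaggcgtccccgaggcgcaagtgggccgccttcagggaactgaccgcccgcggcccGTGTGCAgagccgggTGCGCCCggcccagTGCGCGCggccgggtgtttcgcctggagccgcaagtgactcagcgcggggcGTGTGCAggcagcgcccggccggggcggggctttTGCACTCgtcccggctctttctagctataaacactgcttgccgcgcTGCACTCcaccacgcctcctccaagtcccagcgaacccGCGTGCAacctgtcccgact
MT1X: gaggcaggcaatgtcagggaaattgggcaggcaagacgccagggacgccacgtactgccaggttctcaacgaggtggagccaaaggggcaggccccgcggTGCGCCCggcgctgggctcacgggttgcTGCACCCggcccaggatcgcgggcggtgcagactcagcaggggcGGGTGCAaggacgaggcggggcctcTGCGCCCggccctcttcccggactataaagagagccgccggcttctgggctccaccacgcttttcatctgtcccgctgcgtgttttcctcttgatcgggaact
TSC22D3: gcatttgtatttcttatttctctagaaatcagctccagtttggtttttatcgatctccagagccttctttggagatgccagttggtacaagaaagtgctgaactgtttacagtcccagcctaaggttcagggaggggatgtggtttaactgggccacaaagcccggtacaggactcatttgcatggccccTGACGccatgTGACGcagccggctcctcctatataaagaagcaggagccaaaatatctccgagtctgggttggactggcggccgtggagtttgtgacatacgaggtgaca
FKBP5: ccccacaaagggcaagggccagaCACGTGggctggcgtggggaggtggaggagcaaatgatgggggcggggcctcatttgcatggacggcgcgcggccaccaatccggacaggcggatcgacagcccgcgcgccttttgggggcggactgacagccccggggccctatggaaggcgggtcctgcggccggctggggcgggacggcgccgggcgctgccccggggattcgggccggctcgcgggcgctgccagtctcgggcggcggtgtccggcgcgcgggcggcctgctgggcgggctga

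Motifs were searched on both strands, and they too were chosen with earlier results of these data known. The metal response element core was spelled TGCACNC or TGCGCNC. It occurred 8 times in the MT2A window, beginning 246, 168, 153, 139, 88, 54 and 8 bases before the start and 30 bases after it. In the MT1X window it occurred 4 times, 150, 122, 78 and 53 bases before the start. It occurred in 7 of the 19 windows, also in those of NR3C1, SGK1 and TSC22D3, at 1 or 2 matches each. Over 35116 RefSeq promoter windows this core was held at least once by 29.6%, 4 or more times by 0.601% and 8 or more times by 0.0199%. The half-site TGACG occurred in 6 of the 19 windows and in 24.6% of all windows, and the TSC22D3 window shown holds it 60 and 50 bases before the start. The E-box CACGTG occurred in 1 of the 19 windows, the FKBP5 window shown, 227 bases before the start, and in 7.26% of all windows. The full glucocorticoid response element, searched as GNACA and TGTNC with 3 bases between them, occurred in 0 of the 19 windows and in 0.390% of all windows. Its half-site AGAACA, which can overlap the full element as searched but not lie wholly within it, occurred in 2 of the 19 and in 14.8% of all. The full cyclic AMP response element TGACGTCA, which contains the half-site TGACG, occurred in 0 of the 19 and in 1.85% of all. These matches describe letters in short windows and say nothing of binding, and sites farther from the start were not searched.

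After 1 hour all 7 tested genes were higher per cell in mid-Myc cells than at 0 hours, by 0.26 to 0.68 log2. That count stands against a background in which 62.4% of all tested genes were called higher and 0.697% lower at a limma adjusted p below 0.05. The median of the 7 was 0.43, against 0.30 for all tested genes. With equal medians, TSC22D3, SGK1 and MT2A were called higher and 0 of the 7 lower, where 25.7% of all tested genes were called higher and 3.39% lower. Other scalings moved that background widely: with quantile normalization 955 of all tested genes were higher and 1195 lower in mid-Myc cells, against 3139 and 414 with equal medians.

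In high-Myc cells 6 of the 7 genes were lower after 24 hours, against low-Myc cells, with equal medians, and FKBP5 was higher. On that equal-median scale 26.0% of all tested genes were called lower and 37.7% higher. The median of the 7 was -0.82 log2, against 0.05 for all tested genes. SGK1 and CEBPD were below the filter of 33.8 in both high-Myc arrays. They passed it through the low-Myc and mid-Myc arrays, so the filter itself favoured a lower value at 24 hours. For NR3C1, 7 of its 10 probe sets were not called in this comparison. Per cell, NR3C1, FKBP5 and MT1X were called higher, TSC22D3 was called lower, and SGK1, CEBPD and MT2A were not called. Per cell 90.8% of all tested genes were called higher and 2.53% lower, and the median of the 7 was 0.26 against 0.97 for all. In bulk samples of this kind, fewer cells with a transcript and less of it per cell cannot be told apart.

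High-Myc cells were also set against mid-Myc cells. With equal medians FKBP5 was higher and the other 6 lower in high-Myc than in mid-Myc cells, where 33.3% of all tested genes were called higher and 30.9% lower. Per cell NR3C1 and FKBP5 were higher and the other 5 lower, where 81.7% of all tested genes were called higher and 6.57% lower. The medians of the 7 were -1.05 and -0.42 log2, against 0.02 and 0.72 for all tested genes on the same scales. The limit that the filter sets on SGK1 and CEBPD holds here too. The high-Myc arrays enter both comparisons of the 24-hour cells and the low-Myc arrays enter both comparisons with the repressed state, so these counts are not independent of each other.

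**Figure D1:**
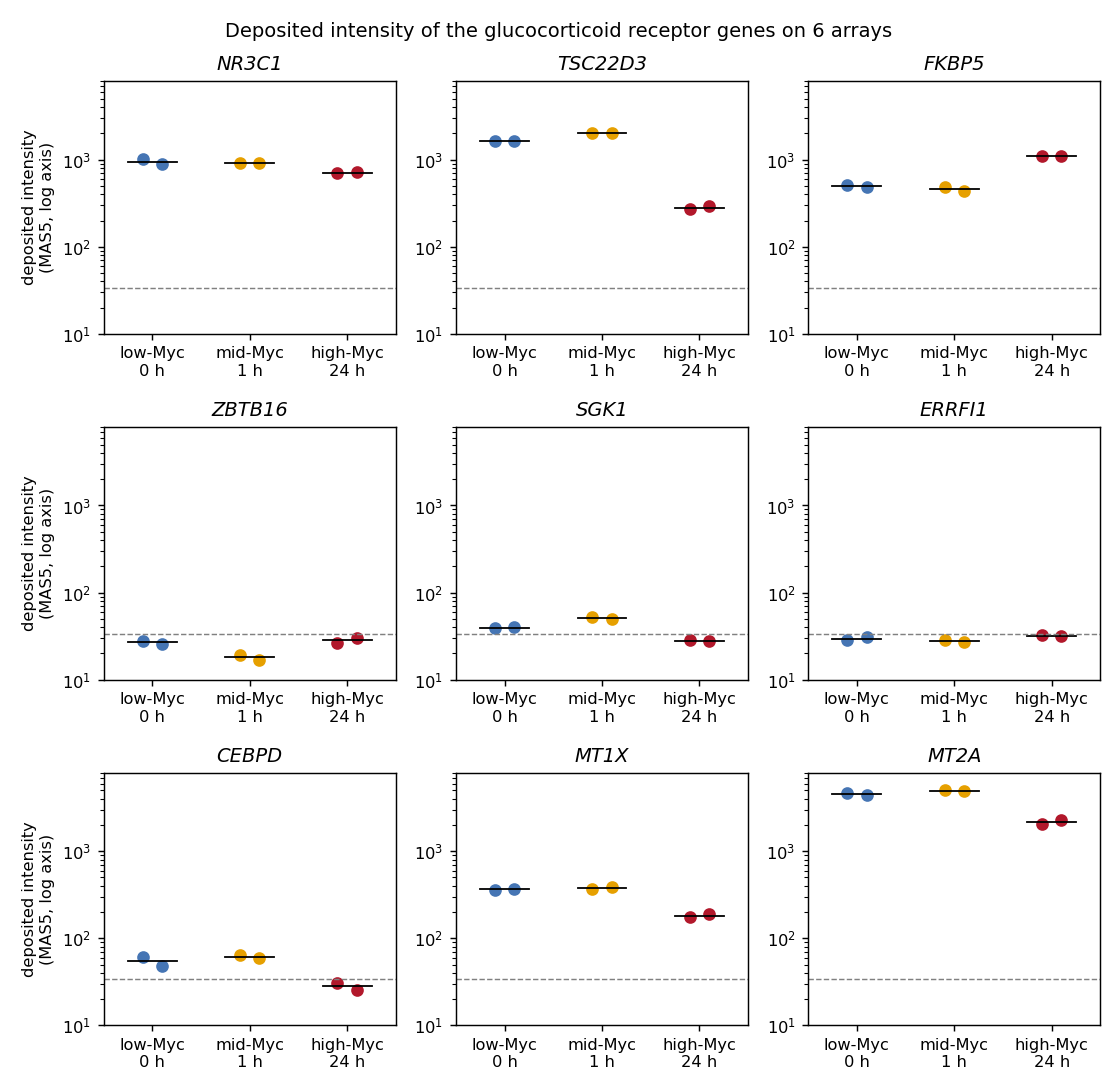
Deposited intensity (log axis) of the 9 genes on the 6 arrays, in order of hours since release. Points are arrays, horizontal lines are group means of 2 arrays, and the dashed line is the filter at 33.8. TSC22D3, MT1X and MT2A sit lowest in high-Myc arrays, FKBP5 sits highest there, and ZBTB16 and ERRFI1 lie below the line on every array.

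NR3C1 encodes the receptor itself. Its deposited intensity was 1017 and 881 in the low-Myc pair, 919.5 and 913 in the mid-Myc pair and 697 and 722 in the high-Myc pair. The mid-Myc values lay between the low-Myc values, and both high-Myc values were below all others. Per cell NR3C1 was 0.81 ± 0.06 log2 higher at 24 hours than at 0 hours (SE, limma adjusted p = 3.53e-07), and 38.6% of tested genes had a smaller difference. With equal medians it was 0.28 ± 0.07 log2 lower in high-Myc cells (SE, limma adjusted p = 0.00293). For the brightest NR3C1 probe set, the one used here, the direction at 24 hours therefore turned with the scale. With equal medians 7 of the 10 NR3C1 probe sets were not called on their own, and the median over the 10 was -0.04. After 1 hour NR3C1 was 0.31 log2 higher per cell (limma adjusted p = 0.00118), while the equal-median difference was 0.10 with a 95% interval of -0.05 to 0.25 (limma adjusted p = 0.295). That last sign was negative with quantile normalization, cyclic loess, centring on the tested genes and the deposited values, at -0.09 to -0.01. It was called without low-Myc replicate 1 (0.21, adjusted p = 0.0363) and with the mean over all probe sets (0.21, 0.024), and 3 of the 10 NR3C1 probe sets were called higher on their own.

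TSC22D3 encodes GILZ, a leucine zipper protein that carries part of the anti-inflammatory action of glucocorticoids. Its intensity was 1630.35 and 1639 in the low-Myc pair, 2008 and 2034 in the mid-Myc pair and 268 and 292 in the high-Myc pair. No groups overlapped, with mid-Myc highest and high-Myc lowest. After 1 hour it was 0.65 ± 0.05 log2 higher per cell (SE, limma adjusted p = 1.15e-05) and 0.46 ± 0.06 higher with equal medians (SE, limma adjusted p = 0.000106). After 24 hours its equal-median difference was -2.41 ± 0.06 log2 (SE, limma adjusted p = 1.18e-12), a fold of 5.30. Per cell its difference between high-Myc and low-Myc was -1.35 ± 0.05 log2 (SE, limma adjusted p = 2.7e-09), and 0.221% of tested genes had a lower one. Between 24 hours and 1 hour the per-cell difference was -2.00 and the equal-median one -2.86 log2 (limma adjusted p = 3.84e-10 and 3.27e-13). All 3 probe sets of TSC22D3 were above the filter and were called in these same directions.

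FKBP5 encodes an immunophilin of the receptor's HSP90 complex that lowers the receptor's affinity for hormone, and its induction by the receptor forms a negative feedback. Its intensity was 505 and 489 in the low-Myc pair, 484 and 439 in the mid-Myc pair and 1094 and 1092 in the high-Myc pair. Both high-Myc values were above all others, and the mid-Myc values were slightly below the low-Myc values. After 24 hours FKBP5 was 2.41 ± 0.05 log2 higher per cell (SE, limma adjusted p = 1.01e-10) and 1.28 ± 0.06 higher with equal medians (SE, limma adjusted p = 3.44e-10). The rise was larger than that of 93.3% of tested genes with equal medians. After 1 hour FKBP5 was 0.26 log2 higher per cell (limma adjusted p = 0.00209), slightly below the median of all tested genes. With the mean over all its probe sets that difference was 0.14 (limma adjusted p = 0.153). With equal medians its difference was 0.04, with a 95% interval of -0.09 to 0.17 (limma adjusted p = 0.662), and the sign was negative under all 4 other scalings. The 3 FKBP5 probe sets above the filter were all called higher after 24 hours on both scales, and the other 3 were dim.

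SGK1 encodes a serum- and glucocorticoid-regulated kinase of ion transport and cell survival. Its intensity was 39.1 and 39.7 in the low-Myc pair, 53.1 and 49.4 in the mid-Myc pair and 28.2 and 27.7 in the high-Myc pair. The groups did not overlap, but all values lay near the filter of 33.8. After 1 hour SGK1 was 0.68 ± 0.13 log2 higher per cell (SE, limma adjusted p = 0.00139) and 0.53 ± 0.14 higher with equal medians (SE, limma adjusted p = 0.0131). Among 23 background control probe sets the highest difference at 1 hour was 0.45 per cell and 0.43 with equal medians. After 24 hours SGK1 was lower with equal medians, at -0.36 log2 (limma adjusted p = 0.0407), a call that was lost with every single array left out (adjusted p up to 0.112). The 1-hour call with equal medians was lost when any low-Myc or mid-Myc array was left out (adjusted p up to 0.0792), with the mean over all probe sets (0.142), centred on the tested genes (0.053) and in the deposited values (0.0723). Per cell its 24-hour difference was 0.26, with a 95% interval of -0.03 to 0.55 (limma adjusted p = 0.08), and it was called with 1 ERCC factor per array (0.72, 0.000505), the loess span of 0.4 (0.35, 0.0256) and no variance trend (0.00441). Between 24 hours and 1 hour SGK1 fell by 0.89 log2 with equal medians (limma adjusted p = 7.87e-05) and by 0.42 per cell (0.0126). The second call was lost without mid-Myc replicate 1 (0.0586), with the mean over all probe sets (-0.26, 0.0597) and with 1 ERCC factor per array (-0.02, 0.899).

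CEBPD encodes a bZIP transcription factor of acute inflammatory and differentiation responses. Its intensity was 61.5 and 48.0 in the low-Myc pair, 63.8 and 58.8 in the mid-Myc pair and 30.7 and 25.4 in the high-Myc pair. Both high-Myc values were below the filter level and below all others, while low-Myc and mid-Myc overlapped on the deposited values. After 24 hours the equal-median difference was -0.82 ± 0.16 log2 (SE, limma adjusted p = 0.000353). Background probe sets, some of them bright, differed by 0.04 to 0.44 in the same comparison, with a median of 0.13. Per cell they differed by -0.13 to 1.56, with a median of 0.21. Per cell the CEBPD difference was -0.13, with a 95% interval of -0.47 to 0.21 (limma adjusted p = 0.426), and its sign was positive under 4 alternatives. After 1 hour CEBPD was 0.49 log2 higher per cell (limma adjusted p = 0.0169). That call was lost without low-Myc replicate 2 (0.33, adjusted p = 0.123), without mid-Myc replicate 1 (0.0903), without mid-Myc replicate 2 (0.053) and with the mean over all probe sets (0.23, 0.0829). The per-cell difference between 24 hours and 1 hour, -0.62 (limma adjusted p = 0.00325), was not called with the mean over all 5 probe sets (-0.06, 0.577) or with 1 ERCC factor per array (-0.28, 0.108).

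MT1X and MT2A encode metallothioneins, small cysteine-rich proteins that bind zinc and copper and whose genes answer to metals and to glucocorticoids. MT2A had an intensity of 4633 and 4445 in the low-Myc pair, 4996 and 4951 in the mid-Myc pair and 2056 and 2273 in the high-Myc pair. MT1X had 359 and 370.1 in the low-Myc pair, 367 and 384 in the mid-Myc pair and 175 and 190.4 in the high-Myc pair. For both genes the high-Myc values were well below the others, for MT2A the mid-Myc values were the highest, and for MT1X mid-Myc and low-Myc overlapped. With equal medians the 24-hour difference was -0.93 ± 0.05 log2 for MT2A (SE, limma adjusted p = 1.74e-09) and -0.86 ± 0.07 log2 for MT1X (SE, limma adjusted p = 1.48e-07). Per cell MT1X was 0.27 log2 higher at 24 hours than at 0 hours (limma adjusted p = 0.00323), and 9.62% of tested genes had a smaller difference. The per-cell difference of MT2A was -0.10, with a 95% interval of -0.21 to 0.0084 (limma adjusted p = 0.0705). That sign was not stable. The difference was 0.33 with the mean over both probe sets (limma adjusted p = 0.000169) and 0.15 with 1 ERCC factor per array (0.0218). Without high-Myc replicate 2 it stayed negative, at -0.18.

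After 1 hour MT2A was 0.39 ± 0.05 log2 higher per cell (SE, limma adjusted p = 9.99e-05) and 0.28 ± 0.05 higher with equal medians (SE, limma adjusted p = 0.00125). The call at equal medians disappeared with quantile normalization (0.05, adjusted p = 0.468), with cyclic loess (0.06, 0.4), in the deposited values (0.13, 0.0689) and with the mean over both probe sets (0.04, 0.663). MT1X was 0.43 log2 higher per cell after 1 hour (limma adjusted p = 0.000382), and its equal-median difference was 0.19 (limma adjusted p = 0.0637). Between 24 hours and 1 hour the per-cell difference was -0.49 for MT2A (limma adjusted p = 5.72e-06) and -0.16 for MT1X (limma adjusted p = 0.0447). The MT1X call was lost in 8 of 15 alternatives, among them the mean over both probe sets (-0.0018, 0.977), the loess span of 0.4 (0.146), and leaving out high-Myc replicate 1 (-0.09, 0.254), mid-Myc replicate 1 (0.0601) or mid-Myc replicate 2 (0.183). The equal-median profiles of MT1X and MT2A differed by a root mean square of 0.0766 log2 over the 6 arrays, the smallest distance among the 7 genes, and the largest was 1.84 between TSC22D3 and FKBP5. Several human metallothioneins are near-identical in sequence, and these probe sets can share signal with family members.

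ZBTB16, which encodes the zinc finger repressor PLZF, had 27.4 and 26.0 in the low-Myc pair, 19.1 and 17.0 in the mid-Myc pair and 26.4 and 30.2 in the high-Myc pair. ERRFI1, which encodes an inhibitor of the epidermal growth factor receptor, had 28.2 and 31.1 in the low-Myc pair, 28.5 and 26.9 in the mid-Myc pair and 32.7 and 31.5 in the high-Myc pair. Both genes were below the filter and were not tested with the others. When every gene was tested, ZBTB16 was 0.62 log2 higher per cell at 24 hours than at 0 hours (limma adjusted p = 0.00727) and ERRFI1 was 0.76 higher (limma adjusted p = 0.000728). With equal medians these differences were 0.22 (limma adjusted p = 0.373) and 0.25 (limma adjusted p = 0.219). All of them lay within the range over the background probe sets, -0.13 to 1.56 per cell and 0.04 to 0.44 with equal medians. These probe sets had a median difference of 0.21 per cell and 0.13 with equal medians. Their mean intensities had a median of 12.4 but reached 694, so the range does not describe dim probe sets alone. Between 24 hours and 1 hour ZBTB16 was 0.64 log2 higher with equal medians (limma adjusted p = 0.00694). The background range there was -0.19 to 0.20. Per cell ZBTB16 was 0.93 higher (0.000473), within -0.33 to 1.10. ERRFI1 had 0.20 with equal medians (0.338) and 0.58 per cell (0.00515). After 1 hour ZBTB16 had -0.42 with equal medians and -0.32 per cell (0.124 and 0.185). Both were below the background ranges, -0.08 to 0.43 and -0.11 to 0.45.

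**Figure D2:**
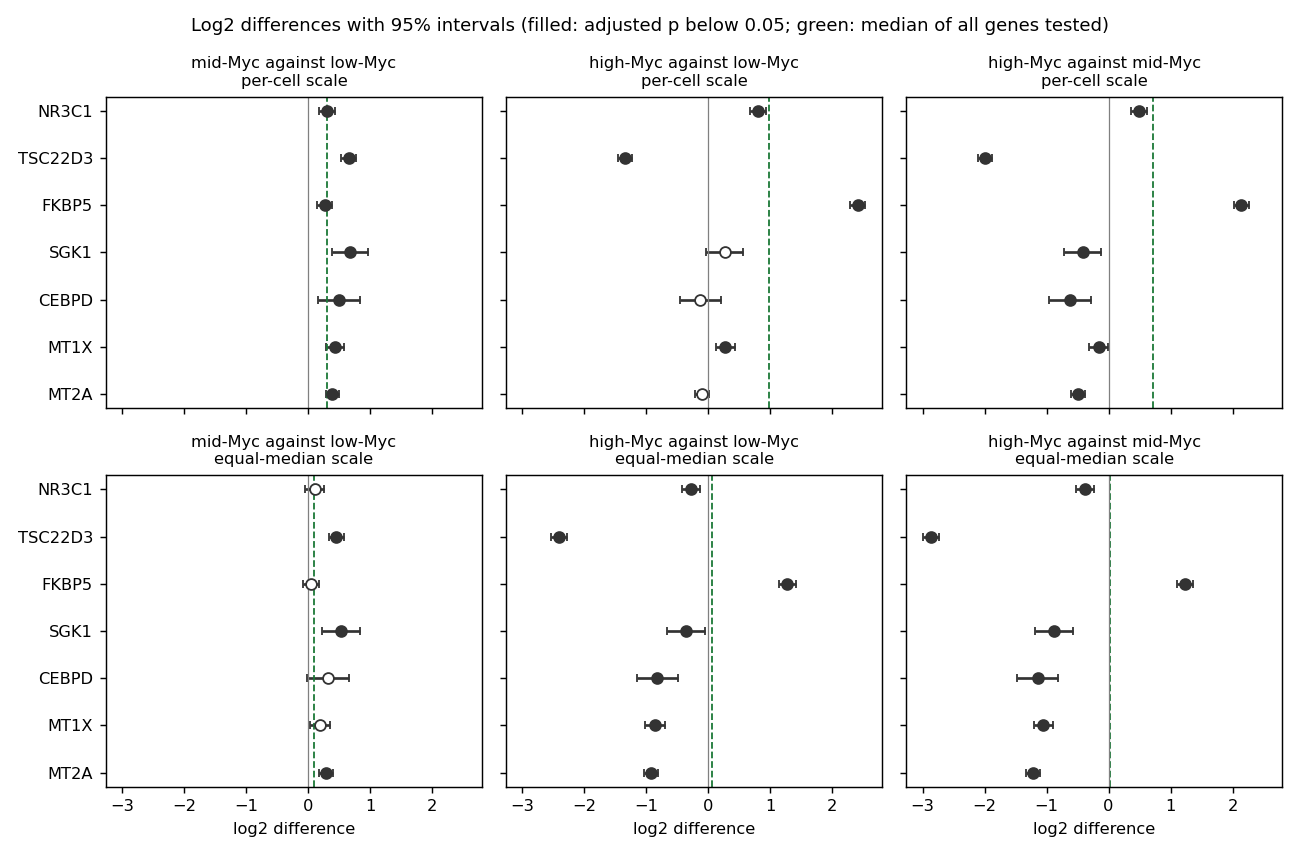
Log2 differences of the 7 tested genes in the 3 comparisons, per cell (top) and with equal medians (bottom). Points are limma estimates with 95% intervals, filled where the adjusted p was below 0.05 and open where it was not, and the green dashed line is the median of all tested genes. TSC22D3 lies far left and FKBP5 far right of that line in both comparisons of high-Myc cells.

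The 9 genes had 34 probe sets in all, and the others served as a check on the ones used. NR3C1 had 10 probe sets above the filter. After 24 hours all 10 were called higher per cell, at 0.29 to 1.18 log2, whereas with equal medians 3 were called lower and 7 were not called, in a limma fit over 27374 probe sets. The equal-median fall of NR3C1 given above is thus a call of its brightest probe set and of 2 others. For 1 dimmer NR3C1 probe set the intensity was 300.0 and 289 in the low-Myc pair, 379 and 401 in the mid-Myc pair and 144 and 159 in the high-Myc pair. Its equal-median difference was 0.56 after 1 hour (limma adjusted p = 0.000217) and -0.82 after 24 hours (limma adjusted p = 4.54e-07). The other 9 NR3C1 probe sets had differences of 0.09 to 0.24 and of -0.42 to 0.05 in those comparisons. Per cell that probe set was lower in high-Myc than in mid-Myc cells, at -0.50 (limma adjusted p = 4.94e-05), and the other 9 lay at 0.35 to 0.81. It was singled out after its values had been seen, and which NR3C1 transcripts it reads was not analysed here.

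The 2 MT2A probe sets disagreed. The dimmer one had 178 and 190.1 in the low-Myc pair, 135 and 155 in the mid-Myc pair and 132 and 143 in the high-Myc pair. It was 0.77 log2 higher per cell at 24 hours than at 0 hours (limma adjusted p = 1.54e-05) and 0.73 higher than at 1 hour (limma adjusted p = 2.81e-05), where the brightest had -0.10 and -0.49. With equal medians the dimmer was lower after 24 hours, at -0.28 (limma adjusted p = 0.0175), as was the brightest. After 1 hour it had -0.20 (limma adjusted p = 0.149), where the brightest had 0.28. Between 24 hours and 1 hour it had -0.09 (limma adjusted p = 0.443), where the brightest had -1.21. Both MT1X probe sets were called lower with equal medians after 24 hours, at -0.86 and -0.53. Per cell between 24 hours and 1 hour 1 MT1X probe set was called lower and the other higher, at -0.16 and 0.16. Of the 5 CEBPD probe sets 3 were above the filter, and all 3 were called lower with equal medians after 24 hours, at -0.82 to -0.38. Only 1 of the 4 SGK1 probe sets was above the filter.

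**Figure D3:**
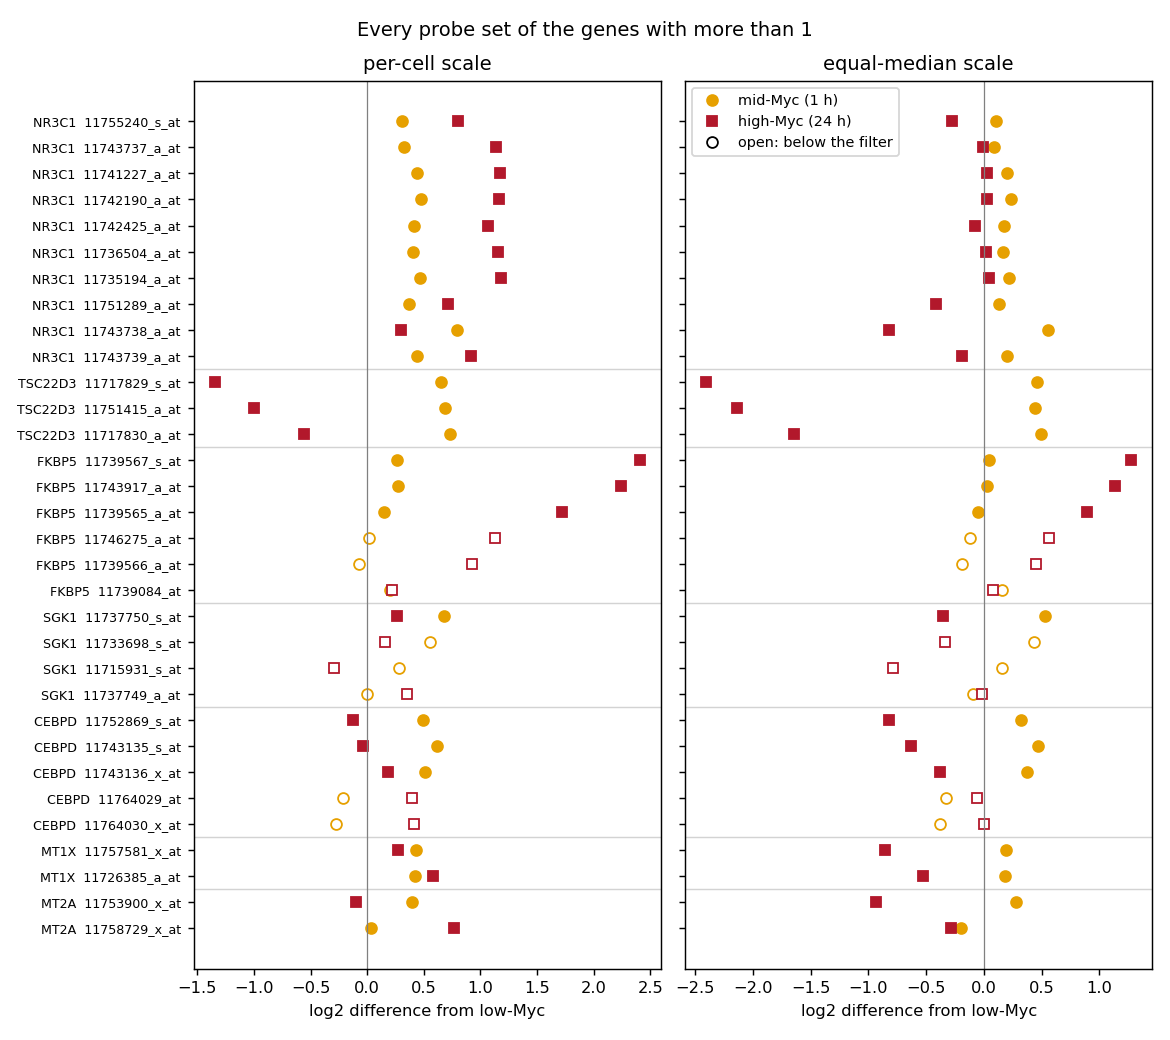
Log2 difference from low-Myc of every probe set of the 7 genes with more than 1, per cell (left) and with equal medians (right). Circles are mid-Myc, squares are high-Myc, and open symbols are probe sets below the filter. The squares of TSC22D3 lie left of 0 and those of FKBP5 right of 0 on both panels, while the MT2A squares part on the left panel.

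The genes around the receptor were described from lists. Of the 16 tested chaperones and co-chaperones of the receptor, 15 were called higher and 1 lower at 24 hours than at 0 hours with equal medians, and their median was 0.67 log2 against 0.05 for all tested genes, of which 37.7% were called higher and 26.0% lower. FKBP4, the immunophilin that competes with FKBP5 for HSP90, was 2.54 ± 0.07 log2 higher (SE, limma adjusted p = 4.22e-12). HSP90AB1, the constitutive HSP90, was 1.39 higher (limma adjusted p = 2.71e-11), STIP1, which links HSP70 to HSP90, was 1.18 higher (6.83e-09), and PPID, another immunophilin, was 1.04 higher (6.09e-08). After 1 hour 7 of the 16 were higher and 1 lower with equal medians, where 25.7% of all tested genes were higher and 3.39% lower. With equal medians FKBP5 was thus higher at 24 hours like most of these genes, and the other 6 tested genes were lower.

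Of the 13 tested co-regulators of the receptor 5 were higher and 5 lower after 24 hours with equal medians, with a median of 0.07, against 37.7% and 26.0% of all tested genes. SMARCA4, the ATPase of the SWI/SNF remodeller, was 0.95 log2 higher (limma adjusted p = 4.33e-08), and HEXIM1, an inhibitor of P-TEFb, was lower, at -0.60 (limma adjusted p = 1.7e-05). Of 2 tested genes of hormone handling, H6PD, which supplies NADPH to the enzyme that regenerates cortisol, had -0.78 (limma adjusted p = 3.18e-06). HSD11B2, which inactivates cortisol, had 73.4 and 74.6 in high-Myc arrays, against 24.4 and 32.0 in low-Myc arrays. It passed the filter of 33.8 through the high-Myc pair alone, so its difference is one from background level.

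Of 29 other genes listed as induced by glucocorticoids, 28 had a probe set and 20 were tested. After 1 hour 14 of the 20 were called higher and 0 lower with equal medians, and their median was 0.46 log2 against 0.09 for all tested genes, of which 25.7% were higher and 3.39% lower. BCL2L11, which encodes the pro-apoptotic BIM, was 2.42 higher (limma adjusted p = 2.22e-10), the clock gene PER1 was 1.57 higher (2.17e-07), RGS2, a brake on G protein signalling, was 1.48 higher (3.07e-09), and the repressor gene BCL6 was 1.18 higher (3.15e-05). After 24 hours 4 of the 20 were higher and 13 lower, against 37.7% and 26.0% of all tested genes, with a median of -0.39. RGS2 had 34.4 and 35.8 in high-Myc arrays, at the filter, against 1897 and 1823 in low-Myc arrays. The size of its difference, -5.59 (limma adjusted p = 4.77e-16), therefore rests on a near-background level. DUSP1, a phosphatase of MAP kinases, had -2.90 (2.11e-12), the chemokine receptor gene CXCR4 had -1.68 (2.04e-10), and CDKN1C, a CDK inhibitor gene also near the filter in high-Myc arrays at 39.9 and 33.1, had -1.70 (3.71e-09). Between 24 hours and 1 hour 15 of the 20 were lower and 4 higher, with a median of -1.56 against 0.02 for all tested genes, of which 30.9% were lower and 33.3% higher. Per cell 18 of the 20 were higher after 1 hour, where 62.4% of all tested genes were. After 24 hours 13 were higher and 7 lower per cell, where 90.8% of all tested genes were higher and 2.53% lower. Many of these genes also answer to serum, cyclic AMP or MAP kinase signals, and none of those signals was measured here.

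Of 13 genes listed as repressed by glucocorticoids 6 were tested. After 1 hour CXCL8 and CCL3, both chemokine genes, were higher with equal medians, by 1.00 and 0.59 log2 (limma adjusted p = 9.29e-06 and 0.000296). That was 2 of the 6 higher and 0 lower, against 25.7% and 3.39% of all tested genes. After 24 hours 4 of the 6 were lower and 2 higher, against 26.0% and 37.7% of all tested genes, with CCL3 at -2.80 (limma adjusted p = 8.31e-12) and CCL5, also a chemokine gene, at 0.43 (limma adjusted p = 0.00351). Among 8 tested genes of the other metallothioneins and the zinc response, SLC30A1, a zinc exporter gene induced by MTF1, was 0.68 higher after 1 hour (limma adjusted p = 0.000196) and MTF1 itself 0.27 higher (0.0186). The other 6 were not called with equal medians, where 25.7% of all tested genes were higher and 3.39% lower. After 24 hours MT1F, MT1E and MT1B were lower with equal medians, at -0.83, -0.60 and -0.35 (limma adjusted p = 4.68e-05, 9.36e-06 and 0.0309), and MTF1 was 0.50 higher (6.37e-05). The other 4 of the 8, among them MT1G, MT1H and MT3, were not called, against 26.0% of all tested genes lower and 37.7% higher. Per cell 6 of the 8 were higher and 0 lower, where 90.8% of all tested genes were higher and 2.53% lower. The MT1F values in high-Myc arrays, 37.8 and 35.4, were near the filter. Of 10 tested paralogs of the 9 genes 4 were higher and 1 lower after 24 hours with equal medians, against 37.7% and 26.0% of all tested genes. The 4 include FKBP4, already counted among the chaperones, and CEBPB, already counted among the other induced genes. Of the CEBPD paralogs CEBPB was 0.82 higher (limma adjusted p = 6.23e-07) and CEBPG 0.41 higher (3.1e-05), and CEBPA and CEBPE were not called. Of the TSC22D3 paralogs TSC22D1 was 0.40 higher (limma adjusted p = 0.0204), TSC22D4 was lower, at -0.26 (limma adjusted p = 0.0294), and TSC22D2 was not called.

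**Figure D4:**
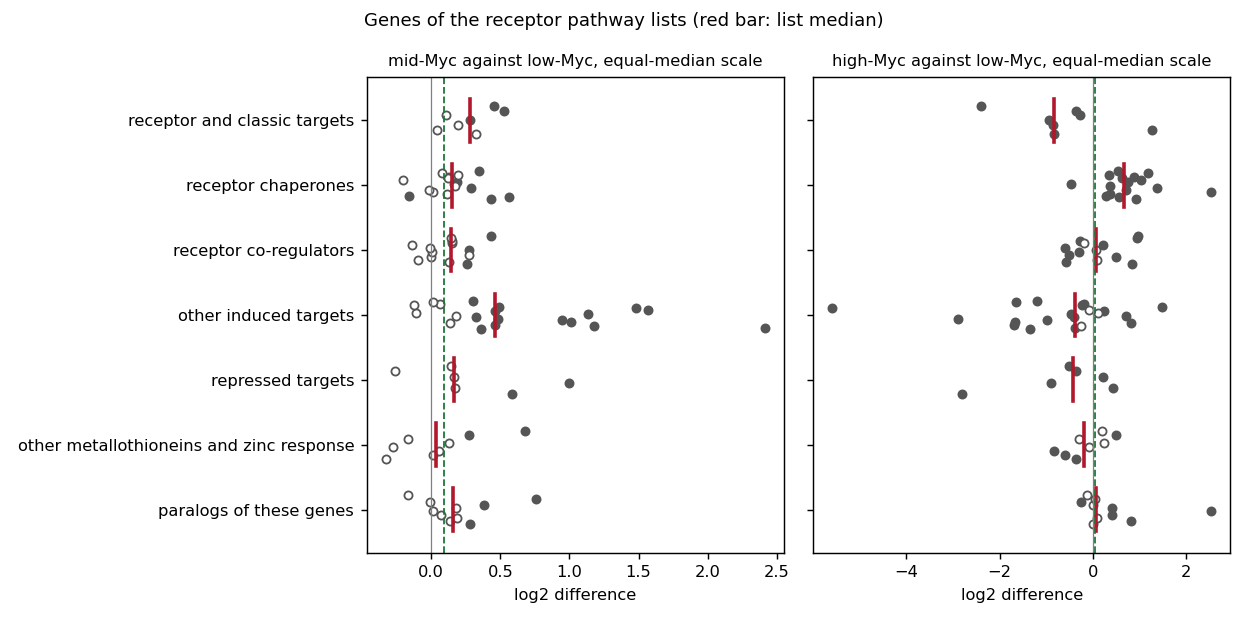
Equal-median log2 differences of the tested genes of each list, mid-Myc against low-Myc (left) and high-Myc against low-Myc (right). Points are genes, filled where the limma adjusted p was below 0.05 and open where it was not, red bars are list medians and the green dashed line is the median of all tested genes. The other induced targets reach 2.42 on the left and -5.59 on the right, and the chaperones lie mostly above 0 on the right.

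The tested genes with the most similar equal-median profile over the 6 arrays were found for each of the 7. For TSC22D3 they were MYBPC2 and YPEL5, at a root mean square difference of 0.0846 and 0.0884 log2, and 11 genes in all lay within 0.2. For FKBP5 they were TAF5 and WDR18, at 0.0360 and 0.0370, with 1031 genes within 0.2. NR3C1 lay nearest to CLMN and ITSN2, with 3969 genes within 0.2. SGK1 lay nearest to NDST1 and EDEM1, CEBPD to LINC02910 and CCL25, MT1X to MYL12A and SLC66A3, and MT2A to ZNF394 and SPINT2, with 652 to 1212 genes within 0.2 of each. A fixed distance of 0.2 log2 takes in more genes around a profile with small changes, such as that of NR3C1. It takes in fewer around one with large changes, such as that of TSC22D3. These counts therefore do not measure how many genes share a pattern.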

How the data were processed

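RNA of 6 P493-6 samples was measured on 1-colour Affymetrix arrays. Per the submitters' processing notes, the authors made the deposited intensity of each probe set, which is linear, with MAS5. Its version and scaling target are not stated in the sources used here. The 49293 human probe sets comprised 45278 with a single symbol, which were used, 1333 with several and 2682 with none listed. Symbols were updated through Entrez identifiers for 45208 of them.

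Intensities were analysed as log2. The per-cell scale subtracts a robust loess fit (span 0.7, degree 1) of 100 ERCC probe sets, each array against the mean of the 6. The equal-median scale subtracts each array's median over human probe sets. Genes with a mean above the 40th percentile of human probe sets (33.8) were tested with limma 3.58.1 in R 4.3.3, in 1 fit over 6 arrays. The fit had a variance trend, p-values were two-sided and adjusted by Benjamini-Hochberg over 12198 genes, and the threshold was 0.05. With 2 arrays against 2, the smallest p of an exact permutation test is 0.333. The steps were tested on simulated data. The number of arrays limits the precision.

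The mid-Myc arrays carry sample numbers far from those of the others. The sources used here do not say whether they were processed apart, and such a difference cannot be told apart from the 1-hour change. The 9 genes, the lists and the motifs were chosen with earlier results of these data known. Named genes were the 9, up to 4 per list and comparison with the largest equal-median difference, from which a selection is printed, and the 2 nearest profiles per gene. Alternatives covered the filter, pseudocount, choice of probe set, variance trend, arrays in the fit, replicate block, arrays left out and scalings.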

Additional observations from a re-analysis of the deposited data

Results flagged for a closer look

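In 3 genes the change after 24 hours ran against the change after 1 hour, each called against low-Myc, with the difference between 24 hours and 1 hour itself called by limma. TSC22D3 was higher in mid-Myc and lower in high-Myc cells than in low-Myc cells on both scales, and its difference between high-Myc and mid-Myc was -2.00 log2 per cell (limma adjusted p = 3.84e-10) and -2.86 with equal medians (limma adjusted p = 3.27e-13). MT2A did so with equal medians, at -1.21 (limma adjusted p = 1.41e-10), but its 1-hour call was lost under 4 alternatives (adjusted p up to 0.663). Its dimmer probe set differed by -0.20 after 1 hour and by -0.09 between 24 hours and 1 hour, neither called (limma adjusted p = 0.149 and 0.443). SGK1 did so with equal medians, at -0.89 (limma adjusted p = 7.87e-05), from a dim probe set. Its 24-hour call was lost without any single array, and its 1-hour call without any low-Myc or mid-Myc array.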

How the results depend on the processing

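TSC22D3 kept its direction and its call in all 3 comparisons on both scales under every alternative run, 15 per cell and 17 with equal medians, and FKBP5 did so in both comparisons of the 24-hour cells. Over those alternatives the 24-hour difference from low-Myc was -1.45 to -0.97 per cell and -2.65 to -2.06 with equal medians for TSC22D3, and 1.44 to 2.49 and 0.73 to 1.31 for FKBP5. Over all 9 genes and alternatives, 38 values lost a call, 8 gained one and 31 of genes without a test moved by more than the spread between replicates. The sign differed from the reported one in 21 values, of FKBP5 (6), NR3C1 (5), CEBPD (4), ERRFI1 (3) and MT2A (3). All but those of MT2A were of values not called as reported; the CEBPD ones were per cell in high-Myc against low-Myc, where 1 ERCC factor per array gave 0.26 and the mean over all probe sets 0.16, against -0.13. The MT2A ones, per cell, were called as reported or under the alternative: high-Myc against low-Myc 0.33 with the mean over all probe sets and 0.15 with 1 ERCC factor per array, and high-Myc against mid-Myc 0.12 with the mean over all probe sets, where its probe sets disagree.

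Of the counts, genes called higher per cell in high-Myc against low-Myc were 5 without the filter and 5 with 1 factor per array, against 3. In high-Myc against mid-Myc they were 4 without the filter, against 2, where 2 more genes were tested. Genes called lower per cell in that comparison were 1 with the mean over all probe sets and 3 with 1 factor per array, against 5. With single arrays left out they were 3 to 5, and those lower in high-Myc against low-Myc 1 to 2. With equal medians, genes higher in mid-Myc against low-Myc were 1 in the deposited values, against 3, and higher in high-Myc against mid-Myc 2 without the filter, against 1. With the pseudocount of 16, SGK1 with equal medians lost its 24-hour call (adjusted p = 0.0554).

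No pairing by replicate number was seen in the values, since deviations of same-numbered arrays correlated at -0.003 to 0.002 over the tested genes. That cannot show whether same-numbered cultures were handled together. With the number as a replicate block, SGK1 in high-Myc against low-Myc with equal medians was not called (adjusted p = 0.055), which left 5 genes lower against 6, and no other call of the 9 genes changed.

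For all tested genes with equal medians, mid-Myc against low-Myc gave 1053 higher and 1034 lower with cyclic loess, 1527 and 1077 centred on the tested genes, and 1131 and 1489 in the deposited values, against 3139 and 414. With single arrays left out 1895 to 3219 were higher and 200 to 457 lower, and per cell 53 to 89 lower, against 85. High-Myc against low-Myc gave 4931 lower centred on the tested genes, against 3172. Values near the filter, those of SGK1, CEBPD and, in high-Myc arrays, RGS2, CDKN1C and MT1F, include background signal, and the table holds no detection calls. A fit over all probe sets above the filter, chosen after seeing the data, changed no call of the 9 genes.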
